A study of Mus musculus with 28 samples.

Results

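The genes followed here encode 26 subunits of the ionotropic glutamate receptors and of the GABA-A receptor, measured in whole mouse brain through cuprizone demyelination and remyelination. Mice fed the copper chelator cuprizone lose oligodendrocytes and myelin, and remake both once the feeding ends. The 26 genes are a list of symbols chosen with earlier results of these data known, and matched to the Ensembl identifiers of the deposited tables. Of these, 16 are glutamate receptor subunits (4 of AMPA, 5 of kainate, 6 of NMDA and 1 of delta receptors). The other 10 are GABA-A subunits (5 alpha, 2 beta, 2 gamma and 1 delta). All 26 were found among the 55414 genes listed, and all 26 passed the filter on low counts that left 12423 genes for testing. The samples were 28 whole-brain RNA preparations in 4 groups of 7. Naive (CPZ0), demyelination (CPZ5) and remyelination (CPZ6+1) mice carried a loxP-flanked TNFR1 gene (TNFR1ff, backcrossed onto C57BL/6). The fourth group, called knockout here (mgTNFR1KO, Cx3cr1-CreER.Tnfr1ff), was in remyelination (CPZ6+1) and had in addition a Cre recombinase that tamoxifen switches on in cells using the Cx3cr1 gene, which removes TNFR1, a receptor of tumour necrosis factor, from microglia. All 4 groups thus share the floxed gene. The knockout group differs from the remyelination group by the Cre allele, and from naive mice by cuprizone as well. The sources used here give neither the age of the mice nor whether the TNFR1ff groups received tamoxifen. They do not say that each sample is a separate animal, so p-values measure the spread between these samples, which may be technical. Cx3cr1 is also used by other myeloid cells.

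Fast excitation in the brain runs through glutamate-gated cation channels, and fast inhibition through GABA-gated chloride channels. AMPA receptors carry most of the rapid synaptic current, NMDA receptors admit calcium when the neuron is already depolarised, and kainate receptors modulate transmission on both sides of the synapse. A glutamate receptor is a tetramer and a GABA-A receptor a pentamer, and the choice of subunits sets conductance, kinetics and place in the cell. Subunits also differ between regions, for instance Gabra6 in cerebellar granule cells, and some subunits are made by glia and their precursors. In bulk tissue, fewer cells of a type and less RNA per cell cannot be told apart.

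The libraries read transcripts from their 3′ ends, with 1 tag per captured RNA, and held between 1522913 and 3137254 counts each. A floor of 3 counts was worth between 0.956 and 1.97 CPM, counts scaled to a common library total. Naive library 1 and knockout library 1 stood apart, with 25.5 and 1.33% of their counts in a single gene without a symbol, and the values of members in which either held the highest or lowest library by a wide gap are given with and without them. Tnfrsf1a, the targeted gene, lay between 16.5 and 30.4 CPM in knockout and between 15.6 and 28.8 in remyelination libraries (log2 −0.05, SE 0.167, adjusted p = 0.961), which checks nothing about the deletion, since a 3′ tag may lie outside the removed part and other cells use the gene. Markers of the model moved as follows: of 12 myelin and mature oligodendrocyte markers 11 fell and 1 rose at demyelination, and all 11 markers of activated microglia rose (edgeR quasi-likelihood test, Benjamini-Hochberg adjusted p under 0.05 over all genes tested, the test used throughout). All 12 pan-neuronal markers were measured. Their summed level lay between 6283 and 7299 CPM in naive libraries. The ranges were 6006 and 6890 CPM (lowest and highest) for demyelination, 6401 and 6823 for remyelination and 6378 and 7117 for knockout.

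Receptor subunit transcripts spanned a 97.7-fold range of mean level, with AMPA and NMDA subunits at the top. CPM is used between genes here because a 3′ tag is counted once per transcript, whatever its length, although a gene whose polyadenylation site lies outside the annotated exons is undercounted. Gria2 led with a mean of 526 CPM over all 28 libraries, followed by Gria1 at 433, Grin2b at 421 and Grin1 at 373 CPM. The ranges over libraries of these 4 genes overlapped. The most abundant GABA-A member was Gabrb1 at 208 CPM, ahead of Gabra2 at 119 and Gabra4 at 93.8 CPM. Between 62.8 and 19.8 CPM lay Grin2c, Gria4, Grin3a, Gabrd, Gabra5, Grik5, Grid1, Grik3, Gabrg1, Gabrg3, Grik2, Grik1 and Gabra6, and Grik4 had 11.2 CPM. Gabra3 (6.67 CPM), Grin2d (6.54) and Gabrb2 (5.38) were the lowest. Grin2d had under 3 counts in 1 library.

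**Figure D1:**
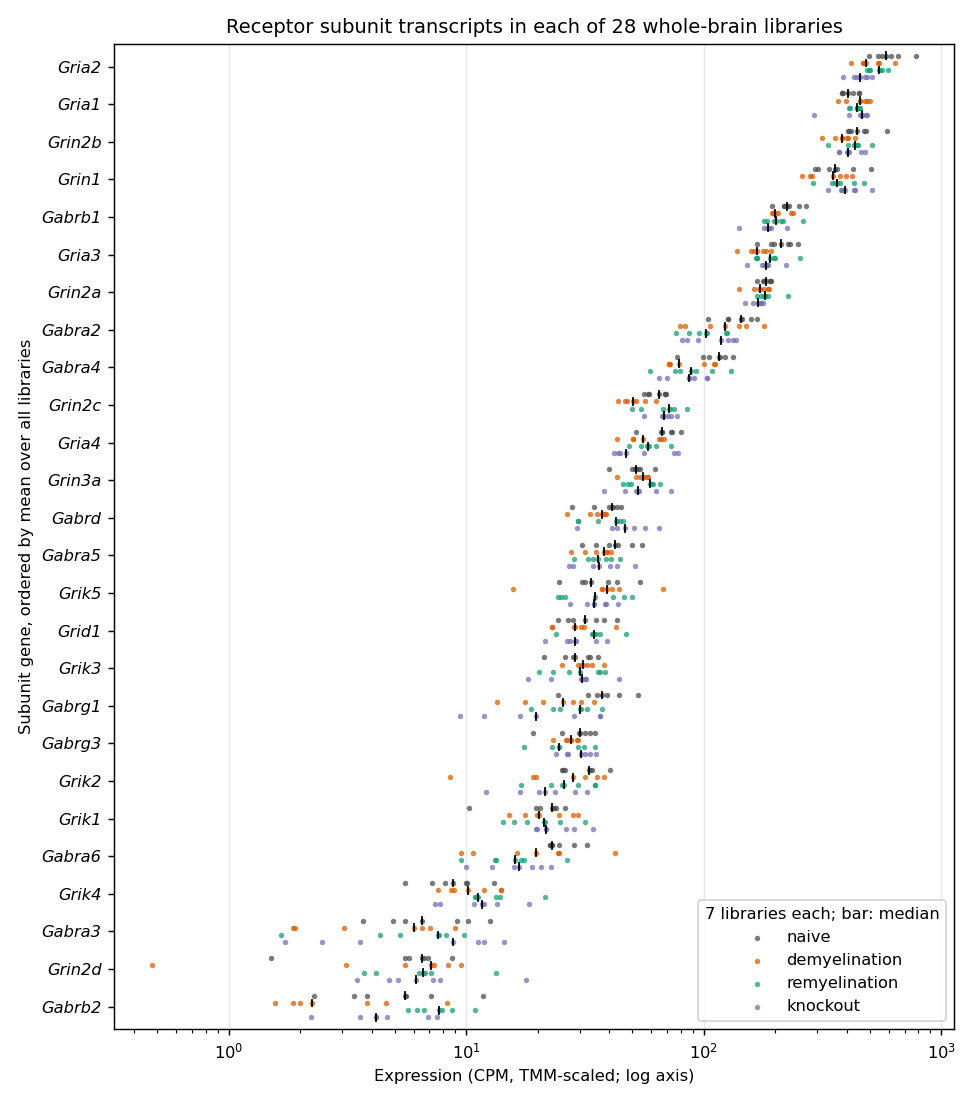
Level of each of the 26 subunit genes (rows, ordered by mean) in each of 28 libraries, in CPM on a log axis; colours are the 4 groups of 7 libraries and a black bar is the group median. The order of genes is far wider than the differences between groups, from Gria2 at a mean of 526 CPM to Gabrb2 at 5.38 CPM.

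Beside this spread between genes the differences between groups were small, and 1 member passed the test in 1 of 5 comparisons: Gria2, which fell in knockout remyelination against naive brain. At demyelination 0 of 26 members passed the edgeR test and 0 passed DESeq2, beside 2% of all 12423 genes. At an unadjusted p under 0.05 there were 6 members, all lower, beside 13.3% of all genes in either direction and 6.47% downward. For remyelination against naive 0 members passed in edgeR or DESeq2 (all genes 0.628%), and 3 had an unadjusted p under 0.05 (all genes 10.4%), 1 higher and 2 lower. For remyelination against demyelination 0 passed in either tool (all genes 0.386%), and 2 were higher at an unadjusted p under 0.05 (all genes 6.65%). Between knockout and remyelination 0 passed in either tool (all genes 0.0483%), and 1 was lower at an unadjusted p under 0.05 (all genes 7.49%), a share below the background. Between knockout and naive 1 member passed in edgeR (Gria2) and 3 in DESeq2 (Gria2, Gabrb1 and Gabrg1, all lower), beside 3.24% of all genes in edgeR and 1.71% downward. That share moved with single libraries, from 1.16% without knockout library 7 to 5.87% without knockout library 1. At an unadjusted p under 0.05 there were 8 members in that comparison, all lower, beside 18.9% of all genes in either direction and 9.78% downward. These comparisons share their naive, demyelination or remyelination libraries and are not independent of each other. In a single edgeR test over all 4 groups 0 members passed (DESeq2 1, Gria2), beside 2.46% of all genes, and 9 had an unadjusted p under 0.05, beside 15.9%. No member had groups whose CPM ranges were apart in any of the 5 comparisons. Of all genes, 1.38% did between demyelination and naive, 0.628% between remyelination and naive, 0.322% between remyelination and demyelination, 0.129% between knockout and remyelination and 1.05% between knockout and naive.

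The members' median difference lay below zero against naive brain in all 3 cuprizone groups. It was −0.15 on the log2 scale at demyelination, beside −0.01 over all genes tested, −0.06 in remyelination (all genes 0.00) and −0.13 in knockout (all genes 0.00). From demyelination to remyelination the median was +0.07 and from remyelination to knockout −0.04, with all genes at 0.00 in both. Of the 26 genes, 6 had a positive value at demyelination, 12 in remyelination and 11 in knockout. The intervals limit what could have been missed. For the 12 members above 50 CPM, the 95% intervals stayed between −0.62 and +0.31 at demyelination and between −0.43 and +0.42 for knockout against remyelination. Intervals reached a 2-fold difference for Gabra3, Gabrb2 and Gabrg1 at demyelination, and for Gabra3 and Gabrb2 between knockout and remyelination, which includes the scarcest members.

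**Figure D2:**
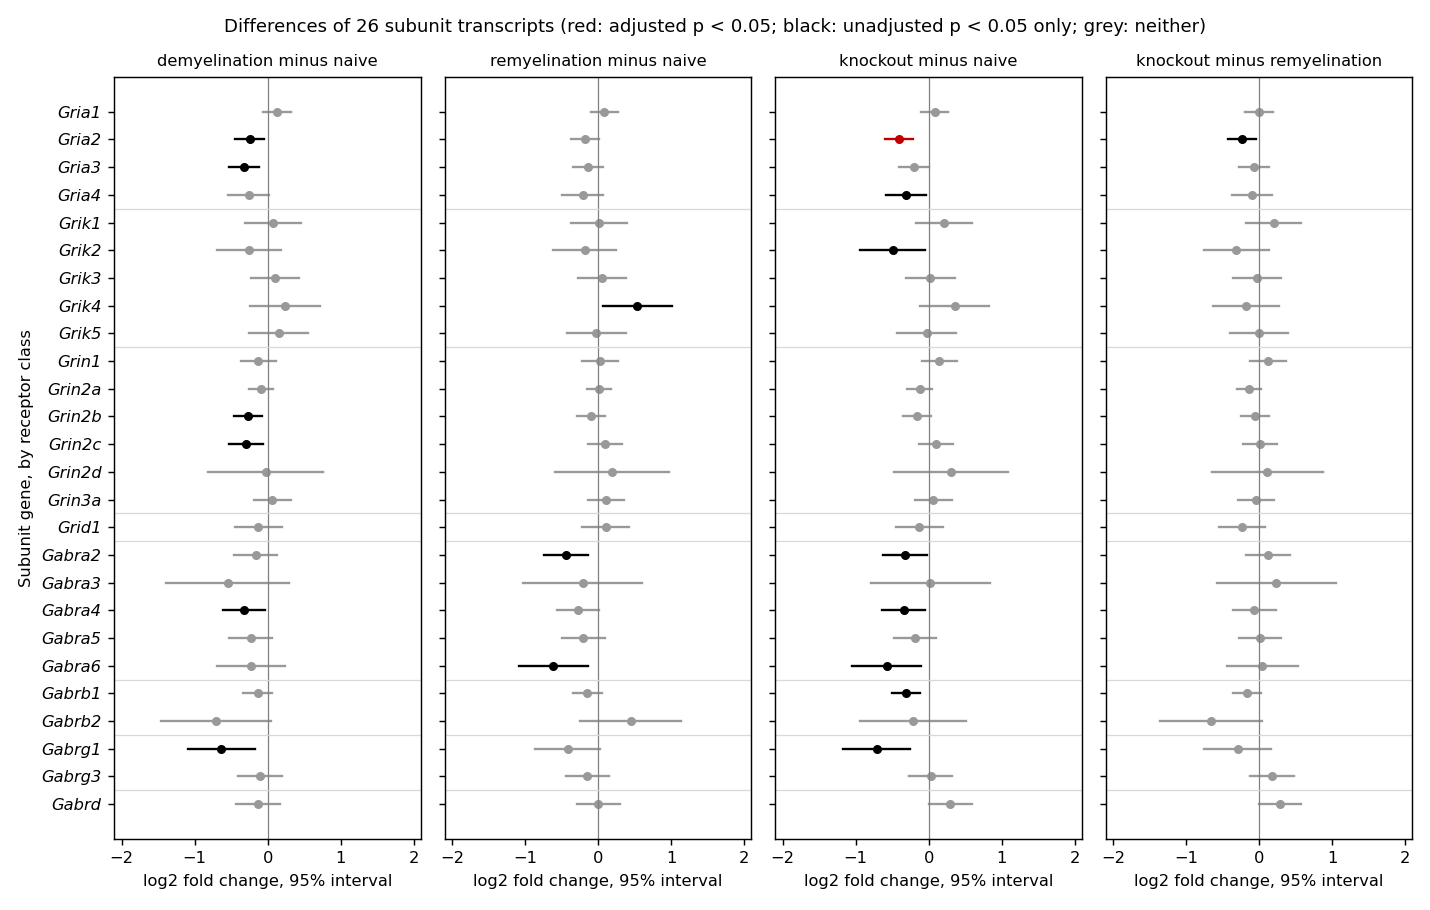
Log2 fold change (point) and 95% interval (line) of each subunit gene in 4 comparisons, ordered by receptor class; red passes an adjusted p of 0.05, black an unadjusted p of 0.05 only, grey neither. The 1 red point is Gria2 in knockout minus naive, and all black points of demyelination minus naive and of knockout minus naive lie left of zero.

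Among the AMPA subunits Gria2 passed in 1 comparison and Gria1 in none, and the 2 genes were not tested against each other. Gria2 (ENSMUSG00000033981.15) encodes GluA2, the subunit whose edited form makes AMPA receptors impermeable to calcium. Its lowest, median and highest levels were 497, 583 and 781 CPM in naive, 416, 480 and 640 in demyelination, 488, 547 and 596 in remyelination and 387, 454 and 512 in knockout libraries. Of the 7 knockout libraries 6 lay below the lowest naive library, and the 2 groups overlapped by 1 library. In means that is 605 ± 93.1 against 455 ± 41.6 CPM (SD, n = 7 each), a fall of 24.7% or a log2 fold change of −0.41 (SE 0.0962, 95% interval −0.60 to −0.22, adjusted p = 0.0113). Naive library 1 held the highest value, and without it the log2 fold change was −0.34 (adjusted p = 0.044). Without both that library and knockout library 1 it was −0.35 (adjusted p = 0.0233). Without knockout library 7, which had the lowest value, it was −0.37 and the call ended (adjusted p = 0.0524).

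In the other comparisons Gria2 did not pass. It was 509 ± 73.5 CPM at demyelination (log2 −0.25 from naive, SE 0.096, adjusted p = 0.21) and 534 ± 41.0 in remyelination (−0.18, SE 0.0959, adjusted p = 0.53). Knockout was 0.23 lower than remyelination on the log2 scale (95% interval −0.43 to −0.04, adjusted p = 0.602), so the contrast between the 2 remyelination groups did not pass. The 4-group test gave Gria2 the smallest p of the members (adjusted p = 0.0543).

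Gria1, which encodes GluA1, the subunit added to synapses during potentiation, had 411 ± 30.9 CPM in naive, 449 ± 48.9 in demyelination, 436 ± 17.9 in remyelination and 435 ± 68.2 in knockout libraries. Its lowest, median and highest values were 381, 406 and 450 CPM in naive and 291, 462 and 487 in knockout libraries. Of the 7 knockout libraries 5 lay above the highest naive one and 1 below the lowest. The log2 differences from naive were +0.13 at demyelination (adjusted p = 0.6), +0.08 in remyelination (0.802) and +0.08 in knockout (0.677). Without knockout library 1, the lowest, the knockout value of Gria1 was +0.16 (adjusted p = 0.238), and without naive library 1 as well +0.14 (0.318). Counted as a share of the 4 AMPA subunits, which needs no scaling between libraries, Gria2 took 46.5 ± 3.84% in naive, 42.9 ± 4.24% in demyelination, 43.7 ± 1.07% in remyelination and 40.4 ± 3.37% in knockout libraries. The share of Gria1 was 32.0 ± 3.69, 38.0 ± 3.87, 35.8 ± 2.1 and 38.4 ± 5.01% in the same order. The ranges of both shares overlapped between all groups, and these shares were chosen after the levels were seen and were not tested. Shares are parts of a whole, so a lower share of Gria2 by itself raises those of the other subunits. Gria3 and Gria4, which encode the remaining AMPA subunits, had log2 values of −0.32 (adjusted p = 0.0978) and −0.26 at demyelination and of −0.20 and −0.31 in knockout against naive. Gria3 went from 211 ± 27.0 CPM in naive to 168 ± 17.7 at demyelination, with 168 to 249 and 139 to 192 CPM as the ranges.

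**Figure D3:**
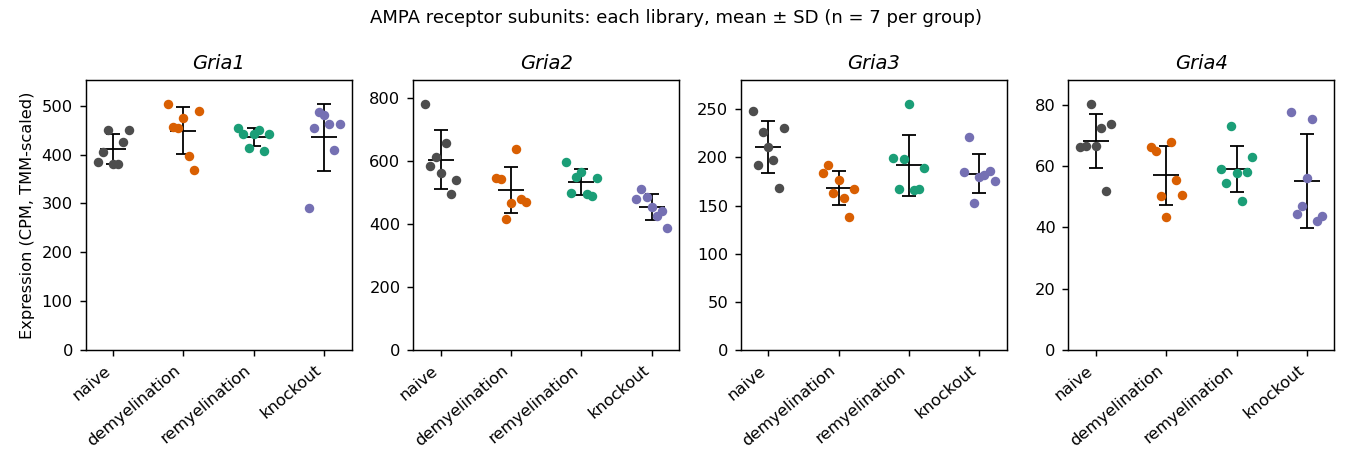
CPM of the 4 AMPA subunit genes in each library by group, from a zero baseline, with the mean and SD (n = 7). Gria2 has its lowest mean in knockout libraries (455 CPM) and its highest in naive (605 CPM), while Gria1 stays between means of 411 and 449 CPM.

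The start region of Gria2 is shown because it is the member that passed, beside that of Gabrb1, which had the second smallest p in the same comparison. Both hold letters of the binding motif of NRF-1, a transcription factor known for genes of energy metabolism and also described at glutamate receptor genes. The motif was searched on both strands as GCGCA, then any base, then GCGC. The stretches run 5′ to 3′ from 250 bases before to 50 after the annotated start, from RefSeq on GRCm38.p6, with the match in capitals.
Gria2, chr3:80802786-80803085, minus strand: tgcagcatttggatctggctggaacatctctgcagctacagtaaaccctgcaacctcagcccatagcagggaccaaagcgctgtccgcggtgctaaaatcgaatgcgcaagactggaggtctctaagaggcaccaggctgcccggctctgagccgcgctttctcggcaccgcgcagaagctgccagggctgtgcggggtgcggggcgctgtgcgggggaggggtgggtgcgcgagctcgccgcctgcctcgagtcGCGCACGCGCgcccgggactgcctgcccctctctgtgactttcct
Gabrb1, second annotated start, chr5:71699682-71699981, plus strand: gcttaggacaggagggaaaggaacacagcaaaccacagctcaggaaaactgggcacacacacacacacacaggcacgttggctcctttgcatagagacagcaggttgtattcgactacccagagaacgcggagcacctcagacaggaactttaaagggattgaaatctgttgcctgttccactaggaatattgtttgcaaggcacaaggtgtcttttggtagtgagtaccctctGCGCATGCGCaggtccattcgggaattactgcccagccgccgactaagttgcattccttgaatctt
RefSeq had such a stretch for 18 of the 26 members. Of their 22 stretches 2 held the motif, those above, and 4.60% of all 32851 RefSeq stretches did. Another 2 motifs were searched in the same way. The GC box, GGGCGG, was in 9 of the 22 stretches and in 35.66% of all, but in no stretch of Gria2 or Gabrb1. The cAMP response element, TGACGTCA, was in 0 of the 22 and in 1.79% of all. The stretch at the first annotated start of Gabrb1 did not hold these letters. The NRF-1 motif was picked for display after the values and the letters had been seen, and a match describes letters only and says nothing of binding in these brains.

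Of the 6 NMDA subunits 0 passed in any comparison. The 2 with an unadjusted p under 0.05 against naive were Grin2b and Grin2c, both with lower values at demyelination. Grin2c encodes a subunit of cerebellar granule cells and astrocytes that weakens magnesium block. Its lowest, median and highest levels were 55.8, 64.7 and 69.2 CPM in naive, 43.8, 50.3 and 63.0 in demyelination, 49.8, 71.1 and 85.1 in remyelination and 56.2, 68.0 and 77.4 in knockout libraries. At demyelination 5 of 7 libraries lay below the lowest naive one. The log2 value was −0.30 at demyelination (adjusted p = 0.215) and +0.39 from there to remyelination (SE 0.116, adjusted p = 0.18). Grin2b, which encodes the subunit with slow decay that dominates early in life, had 405, 441 and 593 CPM as lowest, median and highest in naive, 316, 383 and 434 in demyelination, 334, 431 and 511 in remyelination and 369, 407 and 478 in knockout libraries. Its means at demyelination and in naive brain were 382 ± 37.4 and 460 ± 65.9 CPM (log2 −0.27, adjusted p = 0.16). The highest naive value of Grin2b came from library 1, and without it and knockout library 1 the log2 value was −0.20 (adjusted p = 0.297).

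Grin1, the subunit that every NMDA receptor needs, had means of 370, 338, 376 and 409 CPM in naive, demyelination, remyelination and knockout libraries, with SD between 56.0 and 74.4. Grin2a, the subunit that joins with maturation, moved by at most 0.14 on the log2 scale in the 5 comparisons. Of the transcripts of Grin2a and Grin2b together, Grin2b made up 71.4, 69.0, 69.7 and 71.0% in the 4 groups in that order, with SD between 2.19 and 3.16. Grin3a, an inhibitory NMDA subunit, moved by at most 0.11. Grin2d, the scarcest NMDA member at a mean of 6.54 CPM, had intervals of over 0.7 on either side of its values. Its log2 value for knockout against naive was +0.31 (95% interval −0.47 to +1.08, adjusted p = 0.714), and −0.04 without knockout library 1, the highest of its group. Reads of Grin1, Grin2b and Grin2d cannot be told from those of overlapping antisense genes, since the strand setting is not known.

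Kainate and delta subunits showed no shared direction. Grik5, the most abundant kainate member and an auxiliary partner that raises glutamate affinity, had 24.5, 33.6 and 53.7 CPM as lowest, median and highest in naive, 15.8, 39.3 and 67.6 in demyelination, 24.3, 34.8 and 50.1 in remyelination and 27.3, 34.6 and 43.7 in knockout libraries. The groups overlapped throughout. Grik4, another high-affinity partner, was the 1 member with a positive value at an unadjusted p under 0.05 against naive, 8.98 ± 2.42 against 13.3 ± 3.79 CPM in remyelination (log2 +0.54, adjusted p = 0.366). Remyelination library 6 stood apart with 21.4 CPM (next 13.8). Over the 28 fits without 1 library the log2 value ran from +0.40 to +0.65 (adjusted p 0.28 to 0.635). Counts of Grik4 are uncertain, since Gm24420 overlaps its last exon on the same strand. Grik2, a pore-forming kainate subunit, had 31.0 ± 5.61 CPM in naive and 22.2 ± 6.85 in knockout libraries (log2 −0.49, adjusted p = 0.209). Grik1 and Grik3, which also form pores, moved by at most 0.21 and 0.11. The 0.21 of Grik1, for knockout against naive, was +0.11 without naive library 1, the lowest of its group, and +0.02 without knockout library 1 as well. Grid1, a synapse-organising delta receptor that glutamate does not open, had 24.3, 31.7 and 43.3 CPM in naive, 22.9, 28.7 and 42.7 in demyelination, 23.8, 34.4 and 46.9 in remyelination and 21.5, 28.6 and 39.3 in knockout libraries, again overlapping.

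Of the GABA-A subunits 0 of 10 passed in the edgeR test used throughout (DESeq2 called Gabrg1 and Gabrb1 in knockout against naive), and several had lower values in all 3 cuprizone groups than in naive brain. Gabrg1, a gamma subunit enriched in astrocytes, Bergmann glia and parts of the amygdala and basal forebrain, had the widest differences from naive of the members above 20 CPM at demyelination and in knockout. Its lowest, median and highest levels were 24.3, 37.2 and 52.9 CPM in naive, 13.5, 25.5 and 34.6 in demyelination, 18.7, 30.2 and 37.3 in remyelination and 9.40, 19.8 and 36.4 in knockout libraries. The log2 values against naive were −0.63 (SE 0.225, adjusted p = 0.158), −0.42 and −0.71 (SE 0.225, adjusted p = 0.0688). Of the knockout libraries 4 of 7 lay below the naive range, and none above it. Without knockout library 1 the knockout value of Gabrg1 was −0.84 and passed (adjusted p = 0.0218), and without naive library 1 as well it was −0.76 (adjusted p = 0.0465). It also passed without naive library 6 (−0.80, adjusted p = 0.0413), without knockout library 5 (−0.86, adjusted p = 0.0333) and with no filter on low counts (−0.70, adjusted p = 0.0237). With the replicate number as a block, Gabrg1 passed at demyelination (−0.66, adjusted p = 0.0304) and in knockout (−0.78, adjusted p = 0.00776), although the labels tie no number to a shared animal or batch. Counting every fit, the knockout value of Gabrg1 passed in 4 of 8 alternatives (adjusted p up to 0.106). It passed in 3 of 28 fits without 1 library (adjusted p up to 0.157).

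Gabrb1, a beta subunit and the most abundant GABA-A member, had 194, 224 and 270 CPM as lowest, median and highest in naive, 193, 200 and 237 in demyelination, 178, 201 and 261 in remyelination and 140, 187 and 224 in knockout libraries. Of the knockout libraries 6 of 7 lay below the lowest naive one (log2 −0.31, SE 0.0966, adjusted p = 0.062). The value of Gabrb1 passed without knockout library 1 (−0.31, adjusted p = 0.0499), without that library and naive library 1 (−0.35, adjusted p = 0.0332), without knockout library 4 (−0.36, adjusted p = 0.038), without remyelination library 1 (−0.31, adjusted p = 0.0434) and with the replicate block (−0.32, adjusted p = 0.049). Counting every fit, DESeq2 included, Gabrb1 passed in 3 of 8 alternatives (adjusted p up to 0.136). It passed in 3 of 28 fits without 1 library (adjusted p up to 0.184). Gabra2, an alpha subunit of forebrain synapses and the most abundant of its kind, had 104, 143 and 167 CPM in naive, 79.7, 123 and 180 in demyelination, 76.4, 103 and 125 in remyelination and 80.8, 118 and 136 in knockout libraries. Its log2 value was −0.44 in remyelination (SE 0.149, adjusted p = 0.201), where 5 of 7 libraries lay below the naive range, and −0.32 in knockout. Gabra4, which forms extrasynaptic receptors with the delta subunit, had 110 ± 18.2 CPM in naive and 88.0 ± 18.8, 90.5 ± 23.1 and 86.5 ± 14.7 in the other 3 groups (log2 −0.32, −0.28 and −0.34).

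Gabrg1, Gabra2, Gabra4 and Gabrb1 sit next to one another on mouse chromosome 5 in the GENCODE M21 annotation, with only Cox7b2 among the protein-coding genes between them, and Gabra4 and Gabrb1 start head to head with overlapping first exons. All 4 had an unadjusted p under 0.05 and a negative value in knockout against naive, as did 9.78% of all genes and 8 of the 26 members. Of the other neighbouring members, Gabra5 and Gabrg3 on chromosome 7 had −0.19 and +0.03, neither with an unadjusted p under 0.05, and on chromosome 11 Gabra6 had −0.57 with such a p and Gabrb2 −0.21 without. The cluster was noticed after the values were seen and was not tested.

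**Figure D4:**
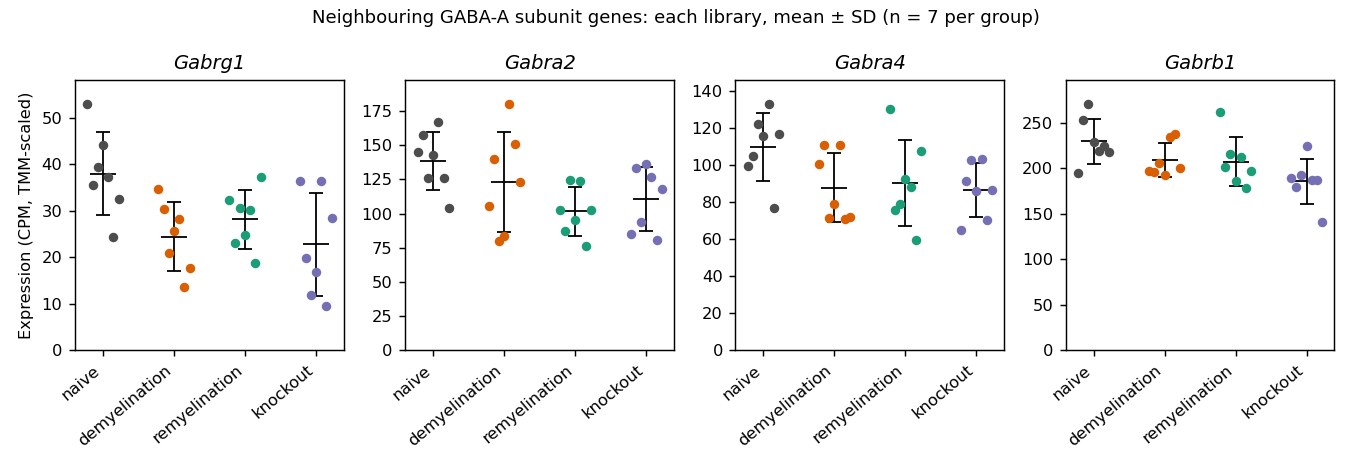
CPM of 4 neighbouring GABA-A subunit genes in each library by group, from a zero baseline, with the mean and SD (n = 7). In each gene the naive mean is the highest of the 4, at 38.0, 138, 110 and 229 CPM from left to right, and the range of every group overlaps the naive range.

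Gabra6, whose product gives granule cell receptors their insensitivity to classical benzodiazepines, had 22.4, 23.0 and 32.4 CPM as lowest, median and highest in naive, 9.51, 19.6 and 42.5 in demyelination, 9.51, 16.1 and 26.6 in remyelination and 9.96, 16.6 and 22.7 in knockout libraries. Of 7 libraries 6 lay below the naive range in remyelination and 6 in knockout (log2 −0.61 and −0.57, SE 0.234 and 0.235, adjusted p = 0.284 and 0.168). Gabrd, the delta subunit of tonic inhibition, had 27.8, 41.1 and 45.0 CPM in naive, 26.4, 37.4 and 38.7 in demyelination, 29.4, 42.8 and 45.9 in remyelination and 29.2, 46.5 and 64.7 in knockout libraries (log2 +0.29 for knockout against naive and against remyelination, adjusted p = 0.266 and 0.662). Of its 7 knockout libraries 4 lay above the naive range. Gabrb2, which makes a beta subunit of the common synaptic receptor, was scarce here: 2.29, 5.51 and 11.7 CPM in naive, 1.56, 2.24 and 8.31 in demyelination, 5.69, 7.69 and 10.9 in remyelination and 2.21, 4.18 and 7.52 in knockout libraries. It rested on 74, 47, 119 and 72 counts per group, and its +1.15 from demyelination to remyelination (95% interval +0.42 to +1.88) had an adjusted p of 0.272. Gabra3, an alpha subunit of monoaminergic and brainstem neurons, Gabra5, of extrasynaptic hippocampal receptors, and Gabrg3 had no unadjusted p under 0.05.

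Among the proteins that carry, anchor and feed these receptors, calls came from the auxiliary subunits and from transmitter synthesis and transport. For knockout against naive, 2 of 17 and 2 of 16 tested genes of these lists passed, beside 3.24% of all genes, and at demyelination 1 of 17 and 0 of 16, beside 2%. In a list of 19 auxiliary subunits 17 were tested. At demyelination 1 of them fell, Olfm3, a secreted protein found with AMPA receptor complexes, from 57.4 ± 13.9 to 37.6 ± 11.3 CPM (log2 −0.60, SE 0.16, adjusted p = 0.0341). In knockout against naive Olfm3 fell to 36.9 ± 4.69 CPM (−0.63, adjusted p = 0.0225) and Cacng3, a transmembrane AMPA receptor regulator, rose from 95.3 ± 17.8 to 128 ± 11 CPM (+0.43, SE 0.115, adjusted p = 0.0286). Of 17 genes of transmitter synthesis and transport 16 were tested, and 2 fell in knockout against naive. Slc17a6, the vesicular glutamate transporter of subcortical neurons, went from 124 ± 12.2 to 91.1 ± 11.5 CPM (−0.44, adjusted p = 0.00725). Gad2, a GABA-synthesising enzyme, went from 190 ± 10.5 to 146 ± 21.5 CPM (−0.38, adjusted p = 0.0307). The calls of Olfm3, Cacng3, Slc17a6 and Gad2 come from the main fit and were not followed under the alternatives or without single libraries. None of the 30 tested scaffold genes of 31 listed and none of 9 metabotropic receptors passed in any of the 5 comparisons. For knockout against naive 7 of 30 and 2 of 9 had an unadjusted p under 0.05, beside 18.9% of all genes. The most abundant genes of these 4 lists were Olfm1, an AMPA receptor partner, the glial glutamate transporter Slc1a2, the scaffold Dlgap1 and the GABA-B subunit Gabbr1, and none of them passed.

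Markers of regions and cells were read beside these values. In knockout against naive, where Gria2 passed, 1 of 12 pan-neuronal markers rose (Thy1, 157 ± 18.7 to 206 ± 21.6 CPM) and 0 fell, although 4 were lower at an unadjusted p under 0.05 (9.78% of all genes). Among thalamus markers 1 of 6 tested fell in this comparison, Rora, from 278 ± 30.7 to 214 ± 20 CPM. The summed thalamus level ranged from 518 to 622 CPM in naive and 387 to 567 in knockout libraries. That of 12 cortex and hippocampus markers ranged from 2157 to 3146 and from 2331 to 3781. In remyelination libraries the 2 sums ranged from 423.5 to 563 and from 1906 to 2853 CPM. There, too, 1 of 6 tested thalamus markers fell against naive (all genes 0.628%), while Gria2 did not pass. The part of these markers in the Gria2 value was not tested. Cerebellum markers, of which 13 of 15 were tested, had summed levels (lowest and highest, all 15) of 1448 and 1837 CPM in naive, 1369 and 1773 in demyelination, 1291 and 1519 in remyelination and 1374 and 1819 in knockout libraries. None passed, while 8 were lower at an unadjusted p under 0.05 in remyelination against naive (5.41% of all genes), where Gabra6 also had its lowest mean. Gabra6 was about as low in knockout (mean 16.8 against 16.2 CPM in remyelination). There 3 cerebellum markers were lower than naive and 2 higher at an unadjusted p under 0.05 (18.9% of all genes in either direction). Against remyelination 4 were higher in knockout (7.49% of all genes in either direction). Of 9 astrocyte markers 2 rose and 0 fell against naive at demyelination, in remyelination and in knockout (all genes 2, 0.628 and 3.24%). In remyelination 2 were lower at an unadjusted p under 0.05 (5.41% of all genes). The lower values of Gabrg1 stood beside an astrocyte sum of 1694 to 1978 CPM in naive and 1730 to 2348 at demyelination. That sum was 1497 to 2120 CPM in remyelination and 1796 to 2151 in knockout libraries. Precursor cell markers summed to 431 to 570 CPM in naive and 397 to 582 at demyelination, with 0 of 8 past the edgeR test at demyelination (2 at an unadjusted p under 0.05, 13.3% of all genes). Of the cerebellum, astrocyte and precursor markers none was at 0 in a whole group; elsewhere the microglial Clec7a had 0 counts in the naive group and the hypothalamic Agrp 0 in remyelination. The part of these markers in the Gabra6 and Gabrg1 values was not tested beyond the relation given next.

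Differences between libraries of the same group went both ways from member to member. After removing group means, the 325 pairs of members had a median Pearson r of −0.01 over 28 libraries, 6 pairs were above 0.5 and 9 below −0.5. Grin2b and Grin1 had r = 0.59 and Gabrg1 and Gria4 0.59, while Grin2b and Grik1 had −0.68; all share the same libraries and their scaling, and these are descriptions. Each member was also set against the mean log2 level of the cerebellum markers in the same way. The closest relations were those of Gabra6, with r = 0.438 (permutation p = 0.0235, adjusted over 26 members 0.49) and Spearman's rho = 0.553 (permutation p = 0.004, adjusted 0.104), and of Grik2, with r = 0.426 (permutation p = 0.0377, adjusted 0.49) and rho = 0.429 (permutation p = 0.0356, adjusted 0.463). Without the 2 libraries farthest from the median marker level, naive 4 and knockout 3, r was 0.612 for Gabra6 and 0.464 for Grik2. Within groups the r of Gabra6 was 0.455 in naive, 0.742 in demyelination, 0.71 in remyelination and 0.0766 in knockout libraries. None of the 26 relations passed the adjustment, and that of Gria2 was r = 0.0478.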

How the data were processed

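The deposited tables are RSEM gene results of 1 library each, and their expected counts, estimated reads per gene, are not normalised, per the file headers. The TPM and FPKM columns that the authors deposited beside them were not used. Per the submitters' processing notes FastQC, cutadapt, STAR, RSEM and edgeR were used with GRCm39; versions, annotation and strandedness: not given in the sources used here. Per the labels' protocols, libraries were made from TRIzol RNA with the QuantSeq forward kit. Between 96.59 and 97.69% of values per library were whole within 0.005, and all were rounded. Symbols came from GENCODE M21 on GRCm38 by identifier, for 52081 of 55414 genes (10.76% of counts had none); it also gave gene order and overlaps, and none of its coordinates are printed.

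Counts were normalised by TMM (factors 0.832 to 1.09), filtered by filterByExpr and tested by quasi-likelihood in edgeR 4.0.16 under R 4.3.3, in 1 fit of all 28 libraries with a mean per group, Benjamini-Hochberg adjusted over 12423 genes; the common biological coefficient of variation was 19.5%. The fit was checked on data simulated for knockout minus naive (12215 genes in that step), where it recovered 88.7% of 97 planted 2-fold changes but 2.1% of 97 1.3-fold changes, with 3 false calls among 91. Every simulated gene had the same coefficient of variation, 19.5%, and no library was made to stand apart. That of the members ran from 10.03% (Grin2a) to 45.35% (Gabra3), so these figures do not give the power for single members. CPM are on TMM-scaled library sizes, and log2 CPM for relations used a prior count of 2. Relations between libraries were tested two-sided by permuting within groups (100000 resamples). Libraries of a group differed by a chi-square of at least 2.53 per degree of freedom, so none was counted as a duplicate. Values were given in full for members that passed, the most abundant of each class and the 4 with the smallest p over all groups, and for Gabra6, Gria1 and Gabra4 by choice after the values were seen; of the other lists, genes that passed and the most abundant were named. The members, lists and rules were chosen with earlier results of these data known. Alternatives were DESeq2 1.42.0, other scalings and filters, a replicate block, fits of 2 groups and leaving out libraries. Exons of Grin1, Grin2b, Grin2d and Gabra5 at the 3′ end overlap an antisense gene, so their counts are uncertain without a known strand setting. Those of Grik4 are uncertain under any, since Gm24420 overlaps on the same strand. Gabra4 and Gabrb1 overlap at their starts but not in their last exons, so the overlap lies away from the 3′ ends that the tags read. Intervals and floors cover counting error or the spread between libraries only.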

Additional observations from a re-analysis of the deposited data

Results flagged for a closer look

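In each group of 7 libraries the highest and lowest value of every member was set against its nearest neighbour, and 10 of 104 sets held a library whose gap, as a share of the range, exceeded Dixon's 95% critical value. Chance alone flags about 1 in 20. Naive library 1 had the highest Grin2b of its group (593 CPM, next 482) and the lowest Grik1 (10.3, next 19.6). Knockout library 1 had the lowest Gria1 (291 CPM, next 409) and the highest Grin2d (17.9, next 7.74). Remyelination library 6 had the highest Grin2a (226 CPM, next 186) and Grik4 (21.4, next 13.8), library 4 of that group the highest Gria3 (255, next 199) and library 7 the highest Grin2d (13.3, next 7.09). Demyelination library 4 had the lowest Grin3a (43.3 CPM, next 52.0) and the highest Grid1 (42.7, next 31.4). Gria2 was not among these sets.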

How the results depend on the processing

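The call of Gria2 in knockout against naive held under all 8 alternatives (log2 −0.41 to −0.35, adjusted p 0.0023 to 0.0235) and in 27 of 28 fits without 1 library (−0.45 to −0.34, adjusted p 0.00784 to 0.0524). The number of members called there was 1. It was 3 with DESeq2, 3 with the replicate block, 3 without naive 1 and knockout 1 together, 2 with no filter, and 0 to 3 without 1 library (0 without knockout 7, 3 without knockout 1, 2 without naive 6, remyelination 1, knockout 4 or knockout 5); the added genes were Gabrg1 and Gabrb1. Over all 4 groups it was 0, but 1 with DESeq2, 1 with no filter, 2 with the replicate block and 0 to 2 without 1 library (2 without remyelination 1, 1 without naive 6, demyelination 5 or knockout 1). At demyelination it was 0, but 1 (Gabrg1, −0.66, adjusted p = 0.0304) with the replicate block. The remaining 3 comparisons stayed at 0 under all alternatives run. All 20 values with an unadjusted p under 0.05 kept their sign under the 8 alternatives and in the fits without 1 library. Of 130 values 14 changed sign under some of the 8 alternatives, none above 0.31 in size. That count leaves out the fits without 1 library, in which other values changed sign too. Gabra4 for remyelination against demyelination kept its sign in 23 of 28 such fits, and Gabrb2 for knockout against naive in 27.

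Replicate numbers were not taken to pair the libraries: of 42 same-numbered pairs 5 had deviations correlated above 0.1 (mean r 0.0395, against −0.00647 for other numbers). As a hint from the data, 10 of 28 libraries correlated best with their own number, where 4 would if all candidates were equal. Over all genes, calls in knockout against naive were 403, but 608 with the replicate block and 243 with library totals. Without 1 library they were 146 (knockout 7), 196 (naive 5), 205 (naive 2), 219 (knockout 6), 233 (knockout 3), 257 (naive 3) or 736 (knockout 1), and 644 without naive 1 and knockout 1. Those in remyelination against naive were 78, but 147 with the replicate block, 132 with DESeq2, 122 with no filter and 154 without remyelination 1. Those in remyelination against demyelination were 48, but 73 with DESeq2, those between knockout and remyelination 6, but 13 with DESeq2 and 28 with no filter, and those over all 4 groups 305, but 579 with no filter, 503 with DESeq2 and 471 with the replicate block. At demyelination library totals gave 192 upward and 59 downward calls against 162 and 87. At this depth the intervals of Gabra3, Grin2d, Gabrb2, Gabrg1, Gabra6 and Grik4 reached 2-fold in at least 1 comparison.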
